A study of Drosophila melanogaster with 4 samples.

Results

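The genes described here are 7 Drosophila melanogaster tubulin genes, found as the rows of both deposited tables whose symbol was alphaTub84B, alphaTub84D, alphaTub85E, alphaTub67C, betaTub56D, betaTub60D or betaTub85D. They are 7 of the 14794 genes in each table, and all 7 were found in both. Alpha- and beta-tubulin pair into the dimers from which microtubules are built, and microtubules carry the mitotic spindle, intracellular transport and cell shape. Flies encode each subunit several times, with general isoforms used by most cells and others confined to particular tissues. In the embryo, the beta-tubulin of betaTub60D is known as an isoform of the developing mesoderm and its muscles, while alphaTub67C is supplied by the mother and betaTub85D serves the male germ line.

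RNA was sequenced from 4 cell populations sorted from embryos by flow cytometry, with 1 library per population. Caudal visceral mesoderm (CVM) cells, which migrate along the gut and later form its longitudinal muscle, and the sorted cells that were not CVM came from embryonic stages 10 to 13. Hemocytes (HC), the migrating blood cells, and the sorted cells that were not hemocytes came from stages 12 to 16. No source used here gives the genotype, the age in hours or the marker used for sorting. The authors compared the populations of each pair in 1 Cuffdiff table, named CVM or HC, and the tables call the conditions q1 and q2. No label says which population q1 is, so every fold is given as q2 over q1, on the log2 scale unless another is named, and a negative value is higher in q1. The expression level of each condition could not be matched to a sample and was not used, so the values below are differences and never levels. A sorted population is a bulk sample, in which fewer cells of a type and less RNA per cell cannot be told apart.

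For CVM, by the authors' deposited table, 9580 genes were measured, meaning that their status was OK and their fold finite and not exactly 0, with a median fold of 0.00 (0.0047). Per the authors' deposited table for HC, 10088 genes were measured and their median fold was 0.62, so the HC folds of the 6 tested members and the HC list medians are also given relative to it ("centred"). Dividing a fold by the authors' statistic gives the standard error their test implies, with a median of 0.54 in CVM and 0.72 in HC; with 1 library per population it holds no measured spread among samples, and what else enters it was not tested. A call is the authors' q-value under 0.05, and it compares 2 libraries, not conditions. No difference below has a replicate check. Markers of the labelled cells lay mostly on the q1 side per the authors' deposited tables. Of 11 caudal visceral mesoderm genes, 9 were called higher in q1 of CVM (median -1.92), against 8.23% of all genes of status OK and 0.728% called higher in q2. Of 10 measured hemocyte genes, 7 were called higher in q1 of HC (median -3.24, centred -3.86), against 5.75%. Hemocyte genes also had 4 of 10 called higher in q1 of CVM (median -0.74), against 8.23%. Caudal visceral mesoderm genes had 2 of 11 called in q1 of HC, against 5.75%, and 4 in q2, against 6.85% (median 1.79, centred 1.18), in the authors' deposited tables.

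The 7 genes lie on 3 chromosome arms in the coordinates of the files (BDGP5). alphaTub84B (FBgn0003884, 3R:2912259-2914582) and alphaTub84D (FBgn0003885, 3R:3356376-3358873) are the general alpha-tubulins and lie 442 kb apart. Their proteins are nearly identical and both are 450 residues long in the Ensembl release 115 gene models (BDGP6 build). How reads shared by the pair were divided between them was not tested. alphaTub85E (FBgn0003886, 3R:5556937-5558970) is an alpha-tubulin of a limited set of differentiating cells, 449 residues long in those models. It lies 321 kb from betaTub85D (FBgn0003889, 3R:5234074-5236004), the beta-tubulin of the sperm axoneme, with 446 residues. alphaTub67C (FBgn0087040, 3L:9674378-9676470) encodes the maternal and most divergent of these alpha-tubulins, with 462 residues, which acts in the meiotic and early embryonic spindles. betaTub56D (FBgn0003887, 2R:15334823-15339122) is the general beta-tubulin, with 447 or 456 residues by transcript. betaTub60D (FBgn0003888, 2R:20193404-20200626) has the longest locus of the 7, at 7223 bases, and proteins of 453 or 454 residues. None of the 7 loci overlaps another gene of the tables, so no member shares its position with a neighbour.

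Of the 7 genes, 6 had status OK in each table. The remaining one, betaTub85D, had status NOTEST in both, Cuffdiff's mark for a gene left out of testing. As given in the authors' deposited table for CVM, 1 of the 6 was called, against 8.96% of the 10026 genes of status OK, and in the authors' deposited table for HC also 1 of 6, against 12.6% of 10749. A count of 1 allows no statement about the group. Different genes were called: betaTub60D in CVM and alphaTub84B in HC. By size, 3 of the 6 were at least 2-fold higher in q1 of CVM, against 17.6% of measured genes, and 0 in q2, against 4.58%, by the authors' deposited table. In HC, per the authors' deposited table, 1 of the 6 was at least 2-fold higher in q1, against 13.3%, and 1 in q2, against 35.4%. After centring these counts were unchanged, against 17.7% and 4.54% in CVM and 22.1% and 16.0% in HC. At 1.5-fold, 0 members were higher in q2 of CVM, against 13.8%, and 3 in q2 of HC, against 51.2%, by the authors' deposited tables. In either direction, 22.2% of measured genes of CVM and 48.7% of HC were at least 2-fold apart. The members' median fold was -0.72 in CVM and 0.37 in HC, by the authors' deposited table for each.

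**Figure D1:**
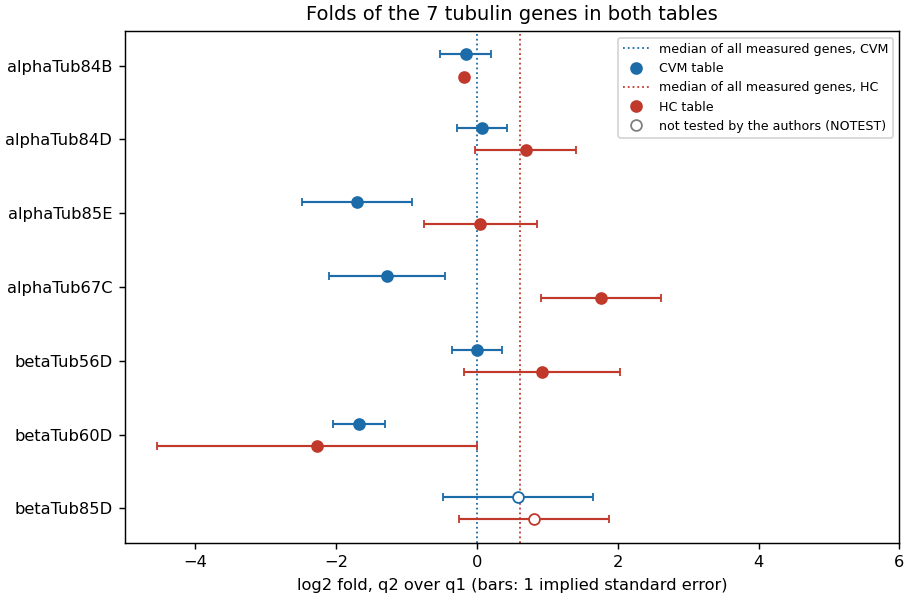
Log2 fold of q2 over q1 for the 7 tubulin genes in the CVM table (blue) and the HC table (red), with bars of 1 implied standard error and dotted lines at the median of all measured genes. betaTub60D lies left of both medians, at -1.68 and -2.27, with a long bar in HC, alphaTub67C lies on opposite sides at -1.27 and 1.76, and the open points of betaTub85D were not tested by the authors.

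The mesodermal isoform betaTub60D was higher in q1 in both tables, and was called in CVM only. For CVM, by the authors' deposited table, its fold was -1.68 (implied SE 0.37), so q1 was 3.19-fold above q2, with a q-value of 0.000145. The interval that the authors' error implies at 95% ran from -2.39 to -0.96 in that table. It stood at percentile 11.0 of measured genes, and 1058 genes lay further toward q1 per the authors' deposited table for CVM. Per the authors' deposited table for HC, its fold was -2.27, or 4.83-fold higher in q1, and -2.89 after centring. This was the largest size among the 6 tested members, and only 506 of the 10088 measured genes lay further toward q1 by the authors' deposited table for HC. It was not called there (q-value 0.513), and the implied interval ran from -6.72 to 2.17. Whether the gene's difference is unlike between the tables was not tested. The uncentred folds differ by 0.60 with an implied error of 2.30, and the centred folds were -1.68 in CVM and -2.89 in HC.

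Genes of the developing muscle lay on the same side as betaTub60D in CVM and on the opposite side, on balance, in HC. In the authors' deposited table for CVM, 15 of 20 somatic muscle genes were called higher in q1, against 8.23% of all genes of status OK, and 0 in q2. The median was -2.29 and the range -5.73 to 1.23; over the muscle genes whose locus no other gene overlaps, the median by the authors' deposited table was -4.58. Mhc (myosin heavy chain) had -5.73 and TpnC47D, a troponin C, -5.63 per the authors' deposited table for CVM. In HC, per the authors' deposited table, 0 of 19 measured muscle genes were called higher in q1 and 3 in q2, against 6.85% of all genes, the median was 1.23 (centred 0.61), and values ran from -0.37 to 2.63. Mef2, the muscle transcription factor, had 1.89 and nau, a myogenic bHLH factor, 2.63 by the authors' deposited table for HC, both called. The HC fold of betaTub60D, -2.27, thus lay outside the range of the muscle list, whose lowest value was -0.37. Its implied interval in HC, -6.72 to 2.17, covers most of that range. The part of muscle cells in the CVM value was not tested.

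The general isoforms had folds near 0 in CVM. For CVM, by the authors' deposited table, betaTub56D had a fold of 0.00 (0.0019, implied SE 0.35), alphaTub84D 0.07 (0.36) and alphaTub84B -0.16 (0.36). None was called, and the q-values were 0.9996, 0.973 and 0.929 per the authors' deposited table for CVM. Their implied intervals lay between -0.87 and 0.77, which is under 2-fold in either direction, but with 1 library per population they hold no spread among samples. Their implied errors were at percentiles 12.4 to 14.8 of measured genes, and that of betaTub60D at percentile 15.5, so these 4 tubulins had some of the smaller implied errors of the authors' deposited table for CVM.

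Per the authors' deposited table for HC, betaTub56D had a fold of 0.92 and alphaTub84D 0.69, neither called (q-values 0.597 and 0.531). Their implied intervals, -1.24 to 3.09 and -0.71 to 2.10, reach past 2-fold, and relative to the median of that table their folds were 0.30 and 0.07. alphaTub84B had -0.18, or 1.14-fold higher in q1, and -0.80 after centring, by the authors' deposited table for HC. This small difference was called, with a statistic of 13.6 and p- and q-values listed as 0 per the authors' deposited table.

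The largest fold among the members of HC was not the one called. alphaTub84B had an implied SE of 0.013, 53.2 times below the median of the HC table, and 2 of the 10088 measured genes had a smaller one. These were mt:lrRNA (0.0028), the large mitochondrial ribosomal RNA, and Ef1alpha48D (0.0056), a translation elongation factor, named here after their values were seen. betaTub60D had an implied SE of 2.27, 3.16 times the median, and 49 genes had one as large or larger by the authors' deposited table for HC. With the median error of the table in place of its own, the fold of betaTub60D would be 3.17 errors from 0 and that of alphaTub84B 0.26, where the deposited statistics are 1.001 and 13.6. These figures use folds before centring, and the centred folds were -2.89 and -0.80. With 1 library per population, the substitution cannot show which error is right or whether either gene differs. The 6 tested members spanned implied errors of 0.013 to 2.27 in HC and 0.35 to 0.82 in CVM, per the authors' deposited tables. In CVM the same 2 genes had errors of 0.37 and 0.36. Called genes with a size under 0.2 numbered 2 of 1286 in HC, and alphaTub84B was one of them; there were 0 of 886 in CVM, in the authors' deposited tables.

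**Figure D2:**
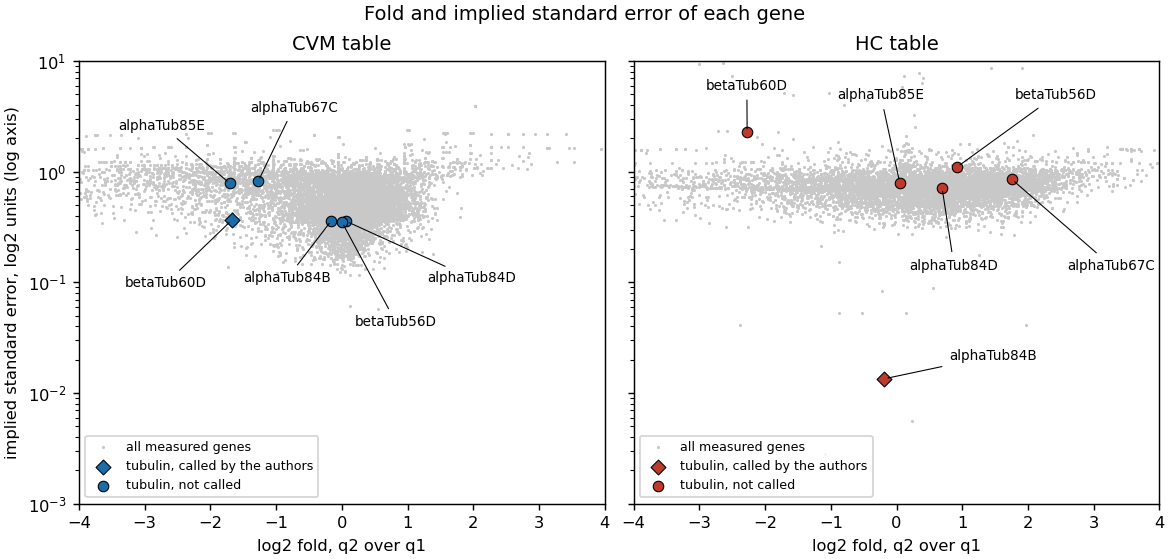
Implied standard error in log2 units (log axis) against the log2 fold of q2 over q1 for all measured genes (grey), with the 6 tested tubulin genes marked as called (diamond) or not called (circle); 200 genes of CVM and 237 of HC lie outside the axes. In the HC table alphaTub84B sits far below the cloud at 0.013 and betaTub60D above it at 2.27, whereas in the CVM table all 6 lie within the cloud.

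The tissue-restricted alphaTub85E was higher in q1 of CVM by size and was not called. Its fold was -1.70 (implied SE 0.78), or 3.26-fold, with an unadjusted p of 0.0297 and a q-value of 0.196 per the authors' deposited table for CVM. This was as large a fold as that of betaTub60D, -1.68, with an error over 2 times as wide. As given in the authors' deposited table for HC, its fold was 0.05 (0.80) and turned to -0.57 after centring, also not called (q-value 1.003). Because a role in tendon and chordotonal cells is known for alphaTub85E, lists of both were counted. Of 6 tendon cell genes, 2 were called higher in q1 of CVM, against 8.23% of all genes, and 2 higher in q2 of HC, against 6.85%, by the authors' deposited table for each. Their median was -0.21 in CVM and 1.45 in HC (centred 0.83), and over those with a locus of their own -0.71 and 0.66, per the authors' deposited tables. Those in CVM were CG7447 at -2.23 and how, an RNA-binding protein, at -0.71, and those in HC were Tsp (thrombospondin) at 2.08 and Lrt at 2.04. Of 10 chordotonal and cilium genes, 0 of 7 measured were called in CVM, against 8.96% of all genes (median 0.30). Only ato among them had an unadjusted p under 0.05, and the share of all genes at that p was not counted. Of 9 chordotonal and cilium genes measured in HC, 1 was called in q1, against 5.75%, and 2 in q2, against 6.85%. The median there was 1.05 (centred 0.43) per the authors' deposited tables. The called ones were ct, a homeodomain factor, at -2.29, ato, the proneural bHLH factor of chordotonal organs, at 2.50, and nan, a channel of their sensory neurons, at 2.43.

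The maternal isoform alphaTub67C lay on opposite sides of the 2 tables. In CVM, per the authors' deposited table, it was 2.41-fold higher in q1, at -1.27 (implied SE 0.82), with a q-value of 0.475. For HC, by the authors' deposited table, it was 3.38-fold higher in q2, at 1.76 (0.85), or 1.14 after centring, with an unadjusted p of 0.0395 and a q-value of 0.146. Neither was called, and the uncentred folds differ by -3.03 with an implied error of 1.18. That difference includes the offset between the medians of the 2 tables, 0.0047 in CVM and 0.62 in HC. Relative to those medians the folds of alphaTub67C were -1.28 and 1.14. Among 8927 genes measured in both tables, 371 (4.16%) were at least 2-fold higher in q1 of CVM and in q2 of HC, as alphaTub67C was.

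Of 16 other genes known for roles in the oocyte or early embryo, 10 had a fold below 0 in CVM and above 0 in HC, as alphaTub67C did, and 6 did not. The share of all genes with this pattern was not counted, so the 10 of 16 allow no statement about the list or alphaTub67C. With an HC median of 0.62 over all measured genes, a fold above 0 was the more common sign there. Per the authors' deposited table for CVM, 7 of 16 maternal and oocyte genes were called higher in q1, against 8.23% of all genes, and 0 in q2, and 9 were at least 2-fold higher in q1. The median was -1.66, and -2.79 over those with a locus of their own, by the authors' deposited table. The yolk protein receptor gene yl had -4.98, exu, which acts in bicoid RNA localisation, -4.07 and osk, the germ plasm organiser, -3.68 by the authors' deposited table for CVM, all called. In the authors' deposited table for HC, 2 of 16 were called higher in q2, against 6.85% of all genes, and 0 in q1, with a median of 1.36, or 0.74 after centring. Those called were yl at 3.28 and the RNA-binding protein gene stau at 1.25 per the authors' deposited table for HC. Of the 6, 3 were below 0 in both: bcd, the anterior morphogen (-3.56 and -2.58), swa, which acts in bicoid RNA localisation (-3.75 and -0.62), and plu, a regulator of the early embryonic divisions (-2.79 and -1.21), each called in CVM and not in HC, in the authors' deposited tables. The other 3, nos (0.30 and 1.59), vas (0.27 and 2.18) and stau (0.20 and 1.25), were above 0 in both, per the authors' deposited tables. The implied error of bcd in HC, 2.35, was of the same order as that of betaTub60D.

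**Figure D3:**
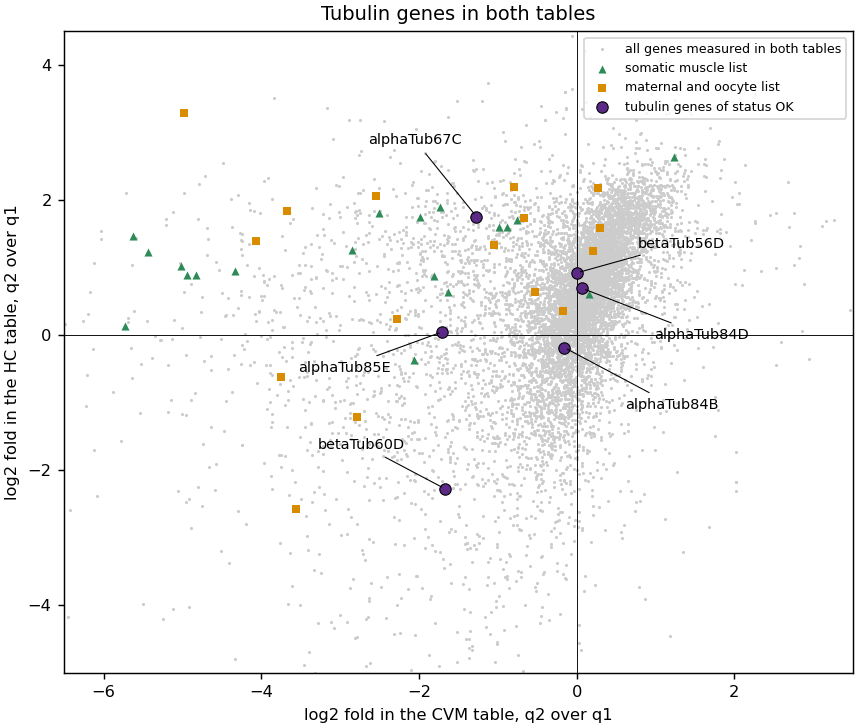
Log2 fold of q2 over q1 in the HC table against that in the CVM table for all genes measured in both (grey; those beyond the axes are not drawn), with the 6 tested tubulin genes, the somatic muscle list and the maternal and oocyte list marked. alphaTub67C lies at upper left with most maternal genes, betaTub60D at lower left and below every drawn gene of the muscle list, and the general isoforms near the vertical axis. The implied error of betaTub60D in HC, 2.27, is not drawn.

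The testis isoform betaTub85D was tested by the authors in neither table. Its listed folds, 0.58 in CVM and 0.81 in HC, carried implied errors of 1.07 in each of the authors' deposited tables, so neither direction is resolved. It was one of 4647 genes with this status in CVM and of 3558 in HC. Of 22 testis genes, 13 had status NOTEST in each of the authors' deposited tables, and 7 were measured in CVM and 8 in HC. The medians of those measured were 0.12 and 1.08 (centred 0.47), and the only call was bam, a germ line differentiation factor, at -2.23 by the authors' deposited table for CVM. Calls higher in q1 of CVM made up 8.23% of all genes. Of 8 axonemal dynein heavy chains, the motors of motile cilia and sperm tails, 6 were not tested in CVM and 2 in HC. Dhc98D, at 2.91, was the one of these called per the authors' deposited table for HC, where calls higher in q2 made up 6.85% of all genes. The median in HC was 1.11 (centred 0.49) over 5 measured. In CVM it was 0.29 over 2 measured, with 0 called.

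The ratio of 1 tubulin to another within a table does not depend on how the 2 libraries were scaled. In CVM, per the authors' deposited table, the ratio of betaTub60D to betaTub56D was 3.20-fold higher in q1 than in q2, a log2 change of -1.68 with an implied error of 0.51. For HC, by the authors' deposited table, the same ratio was 9.15-fold higher in q1, at -3.19, with an implied error of 2.52. The ratio of the 2 general alpha-tubulins, alphaTub84D to alphaTub84B, changed by 0.23 (0.51) in CVM and by 0.88 (0.72) in HC, by the authors' deposited table for each. The ratio of alphaTub67C to alphaTub84B changed by -1.11 (0.90) in CVM and by 1.94 (0.85) in HC. That of alphaTub85E to alphaTub84B changed by -1.54 (0.86) and 0.23 (0.80). The general subunits betaTub56D and alphaTub84B, which pair in the same dimers, changed relative to each other by 0.16 (0.50) in CVM and 1.10 (1.10) in HC. Beyond 2 implied errors lay 1 of these ratios in CVM, betaTub60D to betaTub56D, and 1 in HC, alphaTub67C to alphaTub84B. The HC errors of ratios to alphaTub84B come almost only from the other gene. The implied SE of alphaTub84B there was 0.013, against a table median of 0.72. How these ratios would stand with a usual error for alphaTub84B was not tested.

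A further 5 genes of the tubulin family were listed as background, and none of them was called. betaTub97EF, another beta-tubulin, had -0.86 in CVM and 0.78 in HC, per the authors' deposited tables. gammaTub23C, the gamma-tubulin of somatic centrosomes, had 0.28 and 0.99, and gammaTub37C, its maternal counterpart, -0.83 and -0.10. CG7794 had -1.98 and 1.11, with q-values of 0.346 and 0.443, and CG32396, named betaTub65B in the reference annotation, was not tested in CVM and had -0.81 in HC. The medians were -0.84 over 4 measured in CVM and 0.78 (centred 0.16) over 5 in HC, in the authors' deposited tables. The maternal to somatic gamma-tubulin ratio, gammaTub37C to gammaTub23C, was higher in q1 in both, by -1.11 (0.80) in CVM and -1.10 (1.08) in HC.

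Other parts of the microtubule system showed few calls in CVM and more in HC. Over 91 genes of the ring complex, centrosome, folding, microtubule-binding, severing, kinesin and dynein lists, the authors' deposited table for CVM called 5 higher in q1, against 8.23% of genes of status OK, and 0 in q2, against 0.728%. The authors' deposited table for HC called 0 higher in q1, against 5.75%, and 14 in q2, against 6.85%. The medians were 0.18 in CVM and 0.82 in HC, or 0.20 above the median of the HC table. The difference between the tables was not tested.

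Kinesins, the motors that walk on microtubules, held 7 of the 14. These were 7 of 21 measured kinesin genes, against 6.85% of all genes. nod (2.78), pav (2.39), Klp67A (2.27), Klp61F (2.26), sub (2.19), cmet (2.19) and ncd (1.97) were called higher in q2 of the authors' deposited table for HC, and each is known from work on the mitotic or meiotic spindle or on cell division. The other 14 measured kinesin genes, not called there, ranged from -1.64 for Klc, the kinesin light chain, to 1.76 for neb, by the authors' deposited table for HC. Per the authors' deposited table for CVM, none of the kinesins called in HC was called, with folds from 0.30 for ncd to 0.72 for Klp61F. The one kinesin called there was unc-104, the motor of synaptic vesicle precursors, at -2.23, higher in q1 by the authors' deposited table for CVM; it had -0.27 in HC. The medians of the 23 matched kinesin genes were 0.16 over 19 measured in CVM and 0.78 (centred 0.16) over 21 in HC. Beside these stands the cell cycle list, with 9 of 20 called higher in q2 of HC, against 6.85% of all genes (median 1.89, centred 1.28). Of the same list 2 of 20 were called in q2 of CVM, against 0.728% (median 0.55), by the authors' deposited table for each. Mcm3 and RnrL led it in HC at 2.22 and 2.20, and those called in CVM were RnrS at 1.15 and mus209, the fly PCNA, at 0.97. The part of dividing cells in the kinesin values was not tested.

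Centrosome genes had 3 of 11 measured called higher in q2 of the authors' deposited table for HC, against 6.85% of all genes, with a median of 1.72 (centred 1.11). These were sas-6 (2.57), SAK (1.95) and Sas-4 (1.91), all needed to build centrioles. For CVM, by the authors' deposited table, the median was 0.36, and cp309, a pericentrin relative, was called at -0.80. That is 1 of 12 measured called higher in q1, near the 8.23% of all genes. The gamma-tubulin ring complex, which nucleates microtubules, had 0 of 8 called in either table, against 8.96% of all genes in CVM and 12.6% in HC. Its medians were 0.39 in CVM and 1.05 (centred 0.44) in HC. At an unadjusted p under 0.05, 1 of the 8, Grip84, differed in the authors' deposited table for CVM and 4 in that for HC. The share of all genes at that p was not counted, so these counts allow no statement about the complex. Tubulin folding genes had 0 of 14 called in either, against the same shares, with medians of 0.20 and 0.83 (centred 0.22). Among them the 8 chaperonin subunit genes ranged from 0.02 to 0.38 in CVM and from 0.68 to 1.11 in HC, and the lowest value of the list was that of CG11242, at -2.15 and -1.80, per the authors' deposited tables.

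Microtubule-associated proteins had 2 of 17 called higher in q1 of CVM, against 8.23% of all genes, and 3 of 15 in q2 of HC, against 6.85%. Their medians were -0.19 and 0.67 (centred 0.06). Called in the authors' deposited table for CVM were Jupiter (-1.04), a microtubule-binding protein, and tacc (-0.97), a centrosomal partner of msps, whose status in HC was FAIL. Called in the authors' deposited table for HC were asp (2.33) and mud (1.75), both spindle pole proteins, and stai (2.05), the stathmin that binds free tubulin dimers. Genes that sever or shorten microtubules had 0 of 6 called in CVM (median 0.35), against 8.96% of all genes. In HC 2 of 5 were called higher in q2 (median 0.78, centred 0.16), CG3326 (2.37) and Klp67A, against 6.85%. Dynein and dynactin had 0 of 12 called in HC, against 12.6% of all genes. At an unadjusted p under 0.05 there were 2, and the share of all genes at that p was not counted. The HC median of these 12 was 0.08, which turned to -0.53 after centring. In CVM 1 of 12 was called higher in q1, against 8.23% (median 0.08), the adaptor BicD at -2.61, in the authors' deposited tables. cp309, sas-6, SAK, stai, Klp67A, Klp61F, sub, cmet, ncd, nod, unc-104, Klc, neb, bam, bcd, nos, vas, nau, Mcm3, Tsp, Lrt, CG32396 and gammaTub23C overlap another gene of the tables, so the division of reads there is uncertain.

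**Figure D4:**
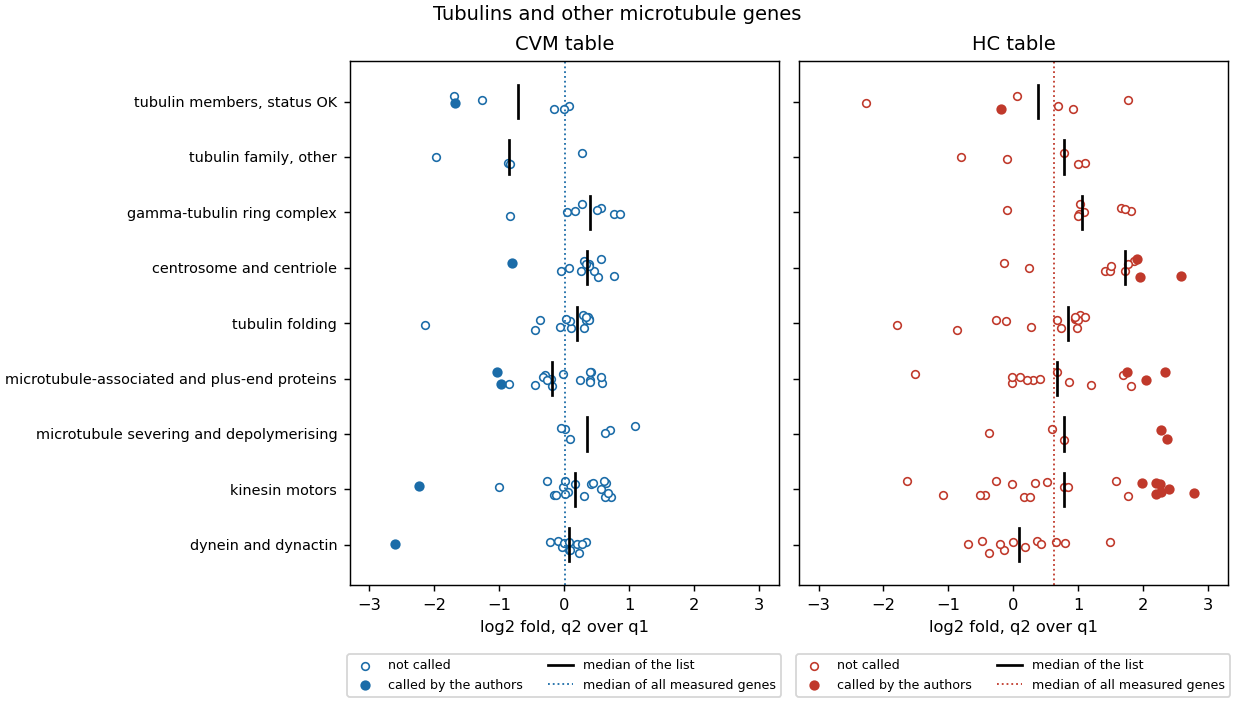
Log2 fold of q2 over q1 of each measured gene of the tubulin members and 8 microtubule lists (rows), filled where called by the authors, with black ticks at the list medians and a dotted line at the median of all measured genes. The called genes lie left of that line in the CVM table and, but for alphaTub84B, right of it in the HC table.

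The genes whose pair of folds was nearest to a member's were found by distance in the 2 log2 folds, over 2 comparisons and 8927 genes, as a description only. For betaTub60D they were CheB42c (-1.57 in CVM and -2.26 in HC), TM4SF (-1.70 and -2.17) and RhoGAP68F (-1.81 and -2.29), and 44 genes lay within 0.5 of it, by the authors' deposited table for each. For alphaTub67C they were CG34347 (-1.31 and 1.65), CG9973 (-1.25 and 1.64) and CG32712 (-1.38 and 1.69), with 107 within 0.5. For alphaTub85E the nearest 2 were CG5322 (-1.66 and 0.09) and 7B2 (-1.72 and -0.02), with 94. The general isoforms had many neighbours: 1215 for alphaTub84B, led by Sep2, DIP1 and Alr, 2123 for alphaTub84D, led by G-ialpha65A, CG11454 and ATbp, and 1933 for betaTub56D, led by Ptp61F, CG8128 and chico. betaTub85D had 1281, led by fd59A, Ela and CG4537.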

How the data were processed

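RNA from 4 sorted populations, with 1 library each, was compared by the authors in 2 tables. Per the submitters' processing notes, Bowtie 0.12.7, TopHat 1.3.3, Cufflinks 1.3.0 and Cuffdiff were used with BDGP5; the annotation release and the depth are not given in the sources used here. Per the file headers, the authors deposited a log2 fold for CVM and a natural log fold for HC, which was divided by the natural log of 2, with p-values and q-values. The fold columns mark an infinite fold with a sentinel, and the q-values of HC reach 1.03 (568 above 1), so these deposited columns were handled as a score. The 4 columns of condition levels were looked at but used in no computation, since no label matches q1 or q2.

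An implied standard error is the size of the fold divided by the authors' test statistic. The authors' p-value equalled the normal p-value of that statistic within 0.001 for every measured gene. The sign of the statistic is opposite to that of the fold. In HC, 316 genes of status OK had a fold of exactly 0 and were left out of medians. With 1 library per group, no test of the populations was made. Computation used Python 3.11.15, pandas 2.3.3, NumPy 2.4.6 and SciPy 1.17.1. On simulated data only the recovery of the implied standard error was checked, which follows from its definition. The other steps were not checked that way.

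The members and the 19 gene lists were chosen with earlier results of these data known. The lists hold 234 symbols; 2 had no match and 9 matched by synonym. Named genes are the members, up to 2 called genes per list, direction and table with the largest folds, and the 3 genes nearest to each member. Other genes named, such as osk, bcd, swa, plu, nos, vas, Klc, neb, CG11242 and the remaining called genes of short lists, were chosen after their values were seen. Other thresholds, centring, status and shared loci were tried as alternatives.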

Additional observations from a re-analysis of the deposited data

Results flagged for a closer look

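The genes below lay at least 2-fold toward q1 of CVM and toward q2 of HC before centring. So did 371 (4.16%) of the 8927 genes measured in both tables. The HC median over all measured genes was 0.62, and after centring the HC folds of exu, TpnC47D, CG7447 and HLH54F are under 2-fold. Each pair of folds comes from 1 library per population, so the difference between the tables was not tested. In the authors' deposited table for CVM and that for HC, alphaTub67C had -1.27 and 1.76 and was called in neither. The maternal genes yl, with -4.98 and 3.28, and exu, with -4.07 and 1.40, lay on the same sides per the authors' deposited tables. The muscle genes Mef2 (-1.73 and 1.89), TpnC47D (-5.63 and 1.47) and Act57B (-2.51 and 1.81) did so too, as did CG7447 of the tendon list (-2.23 and 1.42), per the authors' deposited tables. Of the visceral mesoderm factors, HLH54F had -6.04 and 1.55, croc -2.74 and 2.11 and bin -2.29 and 2.06, per the authors' deposited tables. All of these but alphaTub67C were called in CVM, whereas in HC only yl, Mef2 and bin were called.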

How the results depend on the processing

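The count of called tubulins was 1 in each table at q-values under 0.01 and 0.1 and with genes of every status. Members at least 2-fold apart numbered 3 in CVM and 2 in HC. At 4-fold the counts were 0 and 1, and at 1.5-fold the HC count was 4. The HC fold of alphaTub84B, -0.18, was -0.80 when centred on all measured genes and -0.34 when centred on ribosomal protein genes. Centring also changed the sign of 2 values near 0, alphaTub85E in HC (-0.57, and -0.11 on ribosomal protein genes) and betaTub56D in CVM (-0.0028 on all genes). Of the medians of all 19 lists, recomputed in both tables, 6 values moved by more than the list's median implied error. Without genes that overlap another, they were those of the maternal (-2.79), somatic muscle (-4.58) and tendon (-0.71) lists in CVM and of the tendon list in HC (0.66), and after centring, those of the tendon (0.83) and severing (0.16) lists in HC. The dynein median in HC changed sign on centring (0.08 to -0.53), within the limit set for a move. No replicate could be left out, since each group had 1 library. No paired analysis was possible because each population had 1 library. The depth is unknown, so no interval from counts was given.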

Other observations

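The 6 actin genes encode the subunit of the actin filament system. In CVM, per the authors' deposited table, the muscle actins Act57B (-2.51) and Act87E (-1.82) and the cytoplasmic actin Act5C (-0.95) were called higher in q1, and the median of the list was -1.61. These were 3 of 6, against 8.23% of all genes. Act42A, a cytoplasmic actin, had 0.19 and was not called by the authors' deposited table for CVM. In the authors' deposited table for HC, Act42A was called higher in q1 at -2.29, 1 of 6 against 5.75% of all genes, and the median was -0.38 (centred -1.002). Act57B and Act42A overlap another gene of the tables.

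Of 11 neuronal genes, 4 were measured in CVM and 8 in HC. None was called in CVM, against 8.96% of all genes, with a median of -0.22. In HC, per the authors' deposited tables, the median was 1.26 (centred 0.64) and 2 were called higher in q2, against 6.85%. These were the RNA-binding protein genes fne, at 1.78, and elav, at 1.75, in the authors' deposited table for HC; elav overlaps another gene of the tables.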
